A study of Mus musculus with 6 samples.

Results

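Globins are the oxygen-binding heme proteins of red cells and, at far lower levels, of neurons, muscle and connective tissue. The 9 globin genes described here were taken by gene name: the adult alpha-globins Hba-a1 and Hba-a2, the embryonic alpha-like Hba-x, the adult beta-globins Hbb-bs and Hbb-bt, the embryonic beta-like Hbb-bh1 and Hbb-y, neuroglobin (Ngb) and cytoglobin (Cygb). They are 9 of the 25576 genes listed over all libraries. Bulk RNA sequencing (bulk-seq) had been performed on whole spinal cords of FVB mice at postnatal day 4, with 3 libraries from control mice (mSmn+/-, hSMN22tg/0) and 3 from SMA mice (mSmn-/-, hSMN22tg/0) of the Taiwanese model of severe spinal muscular atrophy. Both groups carry the human SMN2 transgene, and the controls are heterozygous knockouts, not wild-type mice. The sources do not state plainly that each library came from a separate mouse, so p-values measure only the spread between these libraries, which may be technical.

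Hemoglobin is assembled from alpha-like and beta-like chains, which are encoded by separate gene clusters on different chromosomes. As background, the embryonic chains are made in the first red cells of the yolk sac and are replaced by adult chains once definitive red cells form in the fetal liver and later in bone marrow. Ngb is a globin of neurons, and Cygb is known from fibroblasts, pericytes and some neurons.

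The values are FPKM, in which the fragments of a gene are divided by its exon length and by the mapped fragments of the library, so levels of different genes are compared per length. A gene that a library does not list was set to 0 FPKM. Between 21197 and 22296 genes were listed per library, and the FPKM of a library summed to between 346181 and 413653. Depth in reads is unknown. Smn1, the targeted gene, was at 10.4, 8.64 and 11.9 FPKM in control replicates 1, 2 and 3 and at 8.48, 9.30 and 11.1 FPKM in SMA replicates 1, 2 and 3. The groups overlapped for Smn1, so its values are no check of the labels.

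Control replicate 2 stood apart from the other 5 libraries before any group was compared. All 16 hepatocyte markers were highest there, with a summed level of 30318 FPKM against 86.4 and 58.9 FPKM in control replicates 1 and 3 and 49.7, 108 and 58.3 FPKM in the SMA replicates. Their most abundant gene was albumin (Alb), at 15894 FPKM in control replicate 2 and at 24.6 to 56.2 FPKM elsewhere. All 19 red cell protein genes found in the files (of 20 listed) were also highest in this library, as were all 9 neutrophil markers and all 5 hepatic macrophage markers. By contrast, 11 of the 12 neuron markers were lowest there, and their summed level was 880 FPKM against 1592 to 1734 FPKM in the other libraries. Of all 17088 genes tested, 4213 were highest and 7665 lowest in control replicate 2. The astrocyte markers summed to 470 FPKM in control replicate 2 and to between 530 and 589 FPKM elsewhere. Control replicate 1 stood apart in a second way, through the embryonic globins, as described with those genes. Group comparisons of the globins are therefore given with and without control replicate 2.

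Adult alpha-globins are described first. Hba-a1 lies on the plus strand of chromosome 11 (chr11:32283511-32284465) and Hba-a2 on the same strand at chr11:32296489-32297298, both with 3 exons (GRCm38, GENCODE M21). The level of Hba-a1 was 617, 5964 and 393 FPKM in control replicates 1, 2 and 3 and 377, 563 and 411 FPKM in SMA replicates 1, 2 and 3. Hba-a2 was at 478, 4702 and 295 FPKM in the control replicates and at 267, 380 and 267 FPKM in the SMA replicates. For both genes, control replicate 2 was far above every other library, and the remaining control and SMA values were interleaved. Control replicate 1 was the highest of the other 5 libraries for both. Ordered by FPKM, Hba-a1 was gene number 7 of control replicate 2, and its place elsewhere ran from 25 to 54.

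No difference in the level of either adult alpha-globin was called by limma. For Hba-a1 the mean was 2325 ± 3154 FPKM in control and 450 ± 99.2 FPKM in SMA (SD, n = 3 each), and the log2 fold change of FPKM + 1 was -1.35 (SE 0.96, adjusted p = 0.683 by limma). Without control replicate 2 it was -0.15 (SE 0.22, limma adjusted p = 0.848). The log2 fold change of Hba-a2 was -1.53 (SE 0.97, adjusted p = 0.683 by limma) and, without control replicate 2, -0.32 (SE 0.22, adjusted p = 0.651). Control replicate 2 thus held most of the fitted difference for both genes. In bulk samples, fewer cells of a type and less RNA per cell cannot be told apart. Leaving out control replicate 3 instead moved the log2 fold changes to -2.11 for Hba-a1 and -2.32 for Hba-a2 and put every control library above every SMA library, as happened in the lower direction for 13.5% of all genes tested in that setting.

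Adult beta-globins are described next. Hbb-bs (chr7:103826534-103828096, minus strand) and Hbb-bt (chr7:103812524-103813996, minus strand) also have 3 exons each. Hbb-bs was at 661, 7026 and 433 FPKM in control replicates 1, 2 and 3 and at 424, 694 and 587 FPKM in SMA replicates 1, 2 and 3. Hbb-bt was about an order of magnitude lower, at 90.2, 902 and 51.0 FPKM in the control replicates and at 40.2, 71.5 and 58.9 FPKM in the SMA replicates. Control replicate 2 was again the high library for both genes, and the groups overlapped. Hbb-bs was the most abundant globin in every library.

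For Hbb-bs the log2 fold change was -1.18 (SE 0.99, adjusted p = 0.683 by limma), and it turned to 0.06 without control replicate 2 (SE 0.23, adjusted p = 0.949). For Hbb-bt it was -1.53 (SE 1.00, adjusted p = 0.683 by limma) and -0.29 without control replicate 2 (SE 0.28, adjusted p = 0.750). Without control replicate 3 it was -2.35, and the groups of Hbb-bt no longer overlapped, as for the 13.5% of all genes lower in that setting. Together the adult globins took 0.512%, 4.49% and 0.338% of all FPKM in the control libraries and 0.302%, 0.469% and 0.359% in the SMA libraries. Control replicate 3 lay within the SMA range and control replicate 1 just above it.

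**Figure D1:**
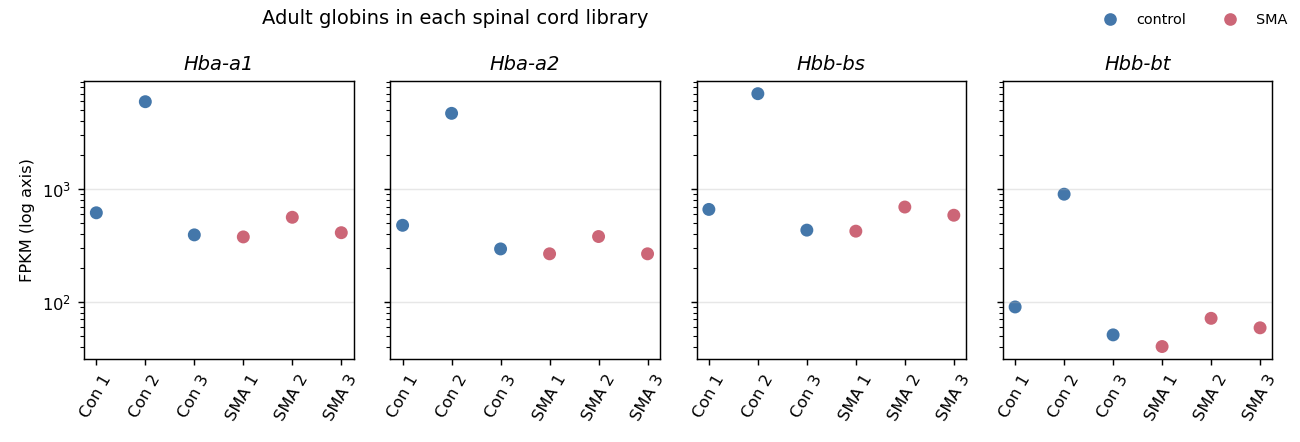
Level of the adult globins in each library, in FPKM on a log axis, with control libraries (Con) in blue and SMA libraries in red and 1 point per library. Control replicate 2 lies between 902 FPKM (Hbb-bt) and 7026 FPKM (Hbb-bs), 12.0 to 16.0 times the median of the other 5 libraries, and those 5 overlap between the groups.

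Across all genes, limma called none of 17088 at an adjusted p under 0.05 (0%). An unadjusted p under 0.05 together with a fold over 2 was met by 29 genes (0.170%), and an unadjusted p under 0.05 alone by 990 (5.79%). Of the 9 globins, 7 passed the minimum mean of 0.5 FPKM, and 0 of these 7 were called by any of these rules. Hbb-bh1 passed only through control replicate 1. The groups did not overlap, lower in SMA, for 6.67% of all genes tested and, higher in SMA, for 10.3%, and for 0 of the 7 tested globins. This split of 1140 lower and 1757 higher genes moved with the scaling, to 1504 and 1075 when libraries were brought to the same total outside the globins and the hepatocyte and red cell lists, and to 1518 and 1414 under median ratio scaling.

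Without control replicate 2, 2 of 16574 genes (0.0121%) had an adjusted p under 0.05. Neither is a globin: they are the small RNA genes Snora74a and Rpph1, named after their values were seen. A further rule, an unadjusted p under 0.05 with a fold over 2, was met by 23 genes (0.139%), and an unadjusted p under 0.05 alone by 10.5%. The groups did not overlap for 13.9% of genes in the lower direction and for 14.2% in the higher direction. Among the globins only Cygb passed any of these rules, as a gene whose groups did not overlap, lower in SMA.

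The paralogs of each adult pair are nearly the same in sequence, which bears on any ratio between them. In the longest transcripts of GENCODE M21, Hba-a1 and Hba-a2 differ at 1 of the 426 coding bases before the stop codon (C381T, Hba-a1 first, counted from the first base of the start codon). Hbb-bs and Hbb-bt differ at 1 of 441 coding bases (C417T, Hbb-bs first). Of all windows of 100 bases in the Hba-a1 transcript, 56.5% occur unchanged in Hba-a2, and 74.5% of those of Hba-a2 occur in Hba-a1. The shares were 62.6% of Hbb-bs windows in Hbb-bt and 54.8% of Hbb-bt windows in Hbb-bs. A read from such a window fits both copies, and how the authors' quantification divided these reads is not given in the sources used here, so levels of single paralogs and their ratios are uncertain. The reference sequence is that of another strain than FVB, and strain differences in these genes were not tested. The coding stretches around each difference are printed 5′ to 3′ with the differing base in capitals, from base 351 to 411 for the alpha pair and from base 387 to 441 for the beta pair.
Hba-a1: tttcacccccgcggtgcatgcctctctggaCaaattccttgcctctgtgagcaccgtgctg
Hba-a2: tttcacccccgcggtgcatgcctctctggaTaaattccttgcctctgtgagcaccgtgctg
Hbb-bs: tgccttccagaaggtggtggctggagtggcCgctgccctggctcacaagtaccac
Hbb-bt: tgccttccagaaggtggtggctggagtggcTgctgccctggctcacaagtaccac

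A ratio within a library is not altered by a scaling factor common to all its genes, though it is by quantile normalization, and the paralog ratios were close to each other within a group although the levels were not. The ratio of Hba-a1 to Hba-a2 was 1.29, 1.27 and 1.33 in control replicates 1, 2 and 3 and 1.41, 1.48 and 1.54 in SMA replicates 1, 2 and 3. All SMA libraries were above all control libraries, and control replicate 2 lay with the other controls. The mean ratio was 1.30 ± 0.0331 in control and 1.48 ± 0.0652 in SMA (SD, n = 3 each). The difference of the mean log2 ratio, SMA minus control, was 0.19 (exact two-sided permutation p = 0.1, the smallest that 3 libraries against 3 can give). Without control replicate 2 it was 0.17 (exact permutation p = 0.1, again the smallest possible). Under quantile normalization, tried for the ratios after the data were seen, the difference turned to -0.07 with all libraries and was 0.09 without control replicate 2, and the groups overlapped in both cases, so the direction for this pair depends on the normalization.

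The ratio of Hbb-bs to Hbb-bt was 7.33, 7.79 and 8.49 in control replicates 1, 2 and 3 and 10.5, 9.71 and 9.96 in SMA replicates 1, 2 and 3. The groups did not overlap here either, with every SMA library above every control library. The mean ratio was 7.87 ± 0.587 in control and 10.1 ± 0.429 in SMA (SD, n = 3 each). The log2 difference was 0.36 (exact two-sided permutation p = 0.1) and 0.35 without control replicate 2 (exact permutation p = 0.1). Under quantile normalization it was 0.54, and 0.23 without control replicate 2, with no overlap in either case. Neither design can reach a p under 0.05. In both pairs the copy with the higher FPKM thus made up a larger share of the pair in each SMA library than in any control by the deposited FPKM, which for the alpha pair did not hold under quantile normalization.

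The alpha-like to beta-like ratio had a lower mean in SMA, with groups that overlapped. The summed FPKM of Hba-a1, Hba-a2 and Hba-x over that of the beta-like members was 1.45, 1.35 and 1.42 in control replicates 1, 2 and 3 and 1.39, 1.23 and 1.05 in SMA replicates 1, 2 and 3. SMA replicate 1 lay within the control range, so the groups overlapped, and SMA replicate 3 was the lowest library. The mean was 1.41 ± 0.0535 in control and 1.22 ± 0.168 in SMA (SD, n = 3 each), a log2 difference of -0.21, and of -0.24 without control replicate 2, when SMA replicate 1 fell just under the remaining controls. It was -0.10 without SMA replicate 3 and -0.30 without SMA replicate 1. The sum was not tested, since it runs over members chosen by name.

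**Figure D2:**
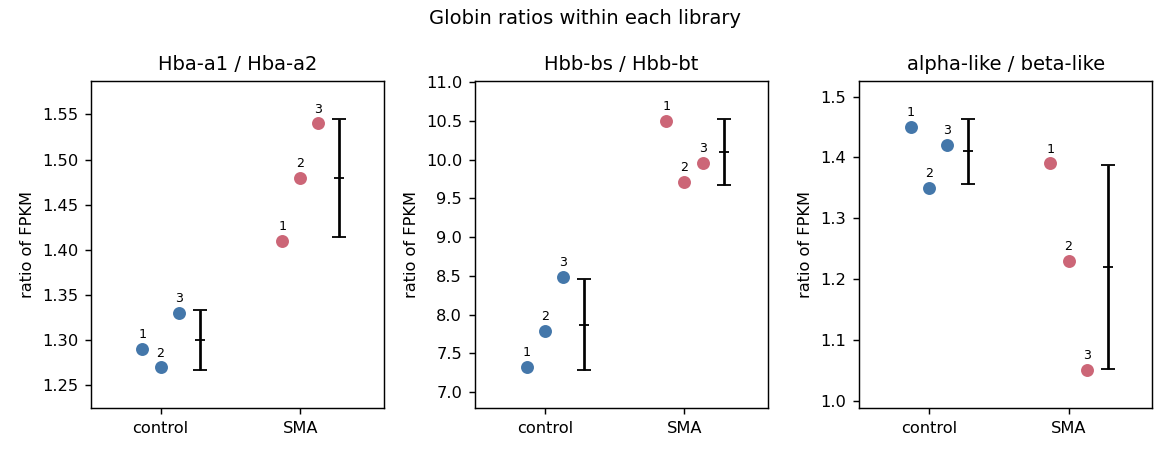
Ratio of FPKM within each library for the adult alpha pair, the adult beta pair and the summed alpha-like over beta-like members, with 1 point per library (its replicate number above it) and the mean ± SD of 3 libraries beside each group. The vertical axes do not start at 0; the SMA libraries lie at 1.41 to 1.54 for the alpha pair and 9.71 to 10.5 for the beta pair, above all control libraries in deposited FPKM (for the alpha pair not under quantile normalization), while the ratio of the sums overlaps.

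Proximal promoters of the globin genes are shown because adult and embryonic members differed in which library was high. RefSeq promoters were found for 6 of the 9 members. The 120 bases before the RefSeq start are printed 5′ to 3′ on the gene's strand (GRCm38.p6) for an adult alpha, both adult beta and both embryonic genes that had one, and GENCODE M21 begins some of these transcripts further upstream. They are chr11:32296372-32296491 (Hba-a2, plus strand), chr7:103827929-103828048 (Hbb-bs, minus strand), chr7:103813924-103814043 (Hbb-bt, minus strand), chr11:32276480-32276599 (Hba-x, plus strand) and chr7:103853208-103853327 (Hbb-y, minus strand). Capitals mark matches, on either strand, to the CCAAT motif, the CACCC motif, the GATA motif (spelled GATAA) and the TATA motif (spelled TATAA), of which the GATA and TATA motifs share their last 4 letters.
Hba-a2: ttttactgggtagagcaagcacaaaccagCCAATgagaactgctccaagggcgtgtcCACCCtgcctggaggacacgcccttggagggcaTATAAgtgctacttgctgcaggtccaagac
Hbb-bs: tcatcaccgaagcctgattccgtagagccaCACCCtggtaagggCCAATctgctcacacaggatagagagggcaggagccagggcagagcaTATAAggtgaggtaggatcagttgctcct
Hbb-bt: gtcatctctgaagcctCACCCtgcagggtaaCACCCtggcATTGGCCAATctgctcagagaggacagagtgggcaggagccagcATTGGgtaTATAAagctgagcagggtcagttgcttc
Hba-x: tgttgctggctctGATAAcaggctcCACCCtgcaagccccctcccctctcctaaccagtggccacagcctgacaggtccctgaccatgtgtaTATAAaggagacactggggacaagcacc
Hbb-y: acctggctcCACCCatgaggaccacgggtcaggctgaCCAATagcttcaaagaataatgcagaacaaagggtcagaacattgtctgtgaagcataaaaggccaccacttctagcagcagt

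Each of the adult promoters held the CACCC, the CCAAT and the TATA motif, with the last of these starting 27 to 30 bases before the RefSeq start. Hba-x held the GATA, the CACCC and the TATA motif but no CCAAT motif in this window. Hbb-y held the CACCC and the CCAAT motif but no exact TATAA. Variants of these spellings were not searched for, so a motif not matched here may be present in another form. Of 32817 RefSeq promoter windows of the same length, 21.3% held the CCAAT motif, 31.7% the CACCC motif, 10.5% the GATA motif and 11.9% the TATA motif. The windows of Hba-a1 and Hba-a2 were identical over 117 bases once shifted by 3 bases, and those of Hbb-bs and Hbb-bt matched at 88 bases when shifted by 1. A match is a description of the letters, not evidence of a binding site.

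Embryonic globins were nearly confined to 1 library. Hbb-bh1, an early embryonic beta-like chain (chr7:103841636-103843164 in the files, minus strand), was at 3.82 FPKM in control replicate 1 and was listed in no other library. Hbb-y, the epsilon-like chain (chr7:103851745-103853240 in the files, minus strand), was at 2.08 FPKM in control replicate 1 and at 0.0894 FPKM in control replicate 2, with no value elsewhere. Hba-x, the zeta-like chain (chr11:32276400-32278116, plus strand), was at 1.56 FPKM in control replicate 1, at 0.0804 FPKM in SMA replicate 1 and in no other library. All 3 embryonic genes were thus high in the same control library, while control replicate 2, with the highest adult globins, was at 0 or near it for each. Over the group, control values ran from 0 to those of control replicate 1 and overlapped the SMA values for each gene.

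A gene not listed need not be absent from the tissue, since depth is unknown, but all 10 genes of general cell use that were looked up were listed in every library. The embryonic globins share no window of 50 bases with one another or with the adult globins of their own cluster, so the reads of one are less easily taken for those of another than in the adult pairs. In coding sequence, Hbb-bh1 is 73.9% and Hbb-y 74.4% identical to Hbb-bs, and Hba-x is 61.7% identical to Hba-a1. Of these 3 genes only Hbb-bh1 was tested, and since it passed the minimum mean only through control replicate 1, where it is high, the sign of its fold change was fixed by that filter and nothing is read from it. Its log2 fold change was -0.76 (SE 0.61, adjusted p = 0.683 by limma) and -1.14 without control replicate 2 (SE 0.55, adjusted p = 0.526).

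Against adult globins, the embryonic share was small even in control replicate 1. Hba-x made up 0.142% of alpha-like FPKM in that library, 0.0125% in SMA replicate 1 and 0% in the other 4. Of beta-like FPKM, Hbb-bh1 and Hbb-y together made up 0.780% in control replicate 1 and 0.00113% in control replicate 2, and their share was 0% in the other 4 libraries. The difference between the group means of the beta-like share, SMA minus control, was -0.260 percentage points and fell to -5.64e-04 percentage points without control replicate 1. It was -0.390 percentage points without control replicate 2. For the alpha-like share the difference was -0.0431 percentage points, -0.0668 without control replicate 2 and 0.00416 without control replicate 1. It was 0.0111 with 1 FPKM added to both parts, so its sign has no firm ground.

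**Figure D3:**
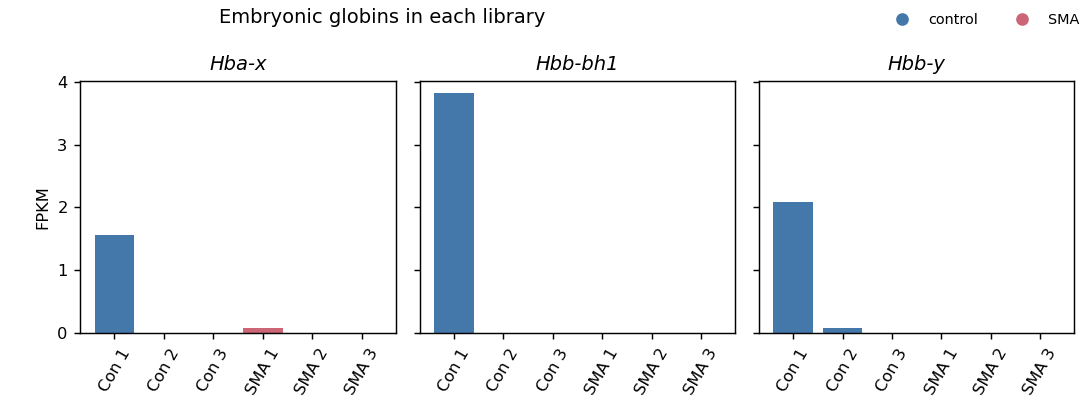
Level of the embryonic globins in each library, in FPKM, as 1 bar per library, with control libraries (Con) in blue and SMA libraries in red. Control replicate 1 carries nearly all of the signal, with 1.56 FPKM of Hba-x, 3.82 FPKM of Hbb-bh1 and 2.08 FPKM of Hbb-y, and the highest value elsewhere is 0.0894 FPKM.

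Of the 11 other globin-family genes on the list, 4 were found in the files. Myoglobin (Mb), the oxygen store of muscle, was at 1.12, 1.18 and 0.960 FPKM in control replicates 1, 2 and 3 and at 1.99, 2.11 and 1.82 FPKM in SMA replicates 1, 2 and 3. All SMA libraries were above all control libraries, as for 10.3% of all genes tested. The log2 fold change was 0.51 (SE 0.13, adjusted p = 0.683 by limma, unadjusted p = 0.00747) and 0.54 without control replicate 2 (SE 0.14, adjusted p = 0.313). In GENCODE M21, Mb (chr15:77015487-77050670, minus strand) overlaps Gm49540 and Apol6 on the opposite strand. The files give Mb a longer span, chr15:77015489-77057107. Whether the authors' quantification used strand is not given in the sources used here, so the level of Mb is uncertain. The skeletal muscle markers summed to 3.05, 4.08 and 0.923 FPKM in the control replicates and to 4.59, 7.08 and 2.48 FPKM in the SMA replicates, with Acta1 as their most abundant gene, and Mylpf was at 0 in control replicate 3. These sums overlapped between the groups, and their part in the Mb values was not tested.

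The theta-globin gene Hbq1b was at 6.42 FPKM in control replicate 2 and between 0.105 and 0.868 FPKM in the other libraries. Its neighbour Hbq1a ranged from 0 FPKM in control replicate 3 to 0.916 FPKM in SMA replicate 1. Androglobin (Adgb) ranged from 0.181 to 0.486 FPKM. Only Hbq1b among the alpha-cluster theta genes shared the high value of control replicate 2 with the adult globins.

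Ngb (chr12:87097531-87102539, minus strand, 4 exons) was at 2.46, 0.809 and 0.978 FPKM in control replicates 1, 2 and 3 and at 2.02, 1.59 and 1.59 FPKM in SMA replicates 1, 2 and 3. Control replicate 1 was the highest and control replicate 2 the lowest of all libraries, so the groups overlapped, and the SMA libraries lay close together. The mean was 1.42 ± 0.908 FPKM in control and 1.73 ± 0.253 FPKM in SMA (SD, n = 3 each). The log2 fold change was 0.24 (SE 0.27, adjusted p = 0.732 by limma) and 0.06 without control replicate 2 (SE 0.24, adjusted p = 0.950). Without control replicate 1 it was 0.53 (limma adjusted p = 0.465), and all SMA values then lay above both remaining controls, as for 21.6% of all genes tested in that setting.

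Beside Ngb, the neuron markers summed to 1641, 880 and 1638 FPKM in control replicates 1, 2 and 3 and to 1592, 1734 and 1733 FPKM in SMA replicates 1, 2 and 3, with Stmn2 as their most abundant gene and none of the 12 at 0. Control replicate 2 was low in both, at 0.509 of the median of the other libraries for Ngb and at a median of 0.528 over the neuron markers. Control replicate 3 was low for Ngb, at 0.978 FPKM, and not for the neuron markers. The part of the neuron content of a library in the Ngb values was not tested.

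Cygb was the more abundant of the non-erythroid members. Its level was 13.6, 8.91 and 14.1 FPKM in control replicates 1, 2 and 3 and 12.9, 11.8 and 12.1 FPKM in SMA replicates 1, 2 and 3. With all libraries the groups overlapped, because control replicate 2 was the lowest library. Without it, both remaining controls were above all SMA libraries, as for 13.9% of genes in that direction. The mean was 12.2 ± 2.87 FPKM in control and 12.3 ± 0.594 FPKM in SMA (SD, n = 3 each). The log2 fold change was 0.03 (SE 0.17, adjusted p = 0.950 by limma), and it turned to -0.16 without control replicate 2 (SE 0.08, adjusted p = 0.524). Its sign also turned under median ratio scaling, at -0.02, and without SMA replicate 1, at -0.0036, so no direction can be given for Cygb.

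In GENCODE M21, Cygb has 4 exons on the minus strand (chr11:116645595-116654313) and overlaps Prcd on the opposite strand. The files give Cygb a longer span, chr11:116645595-116668389, so its level may hold reads of the overlapping gene and is uncertain. Markers of the cells in which Cygb is known were set beside it. The fibroblast markers summed to 172, 176 and 154 FPKM in control replicates 1, 2 and 3 and to 188, 84.9 and 43.8 FPKM in SMA replicates 1, 2 and 3, with Col1a2 as the most abundant of the 8 genes and none at 0. SMA replicates 2 and 3 had the lowest sums, mostly through the collagens Col1a1, Col1a2 and Col3a1, while Fbln1, at 9.34 and 8.98 FPKM there, was not low. The pericyte and smooth muscle markers summed to 45.6, 397 and 54.8 FPKM in control and to 44.0, 36.8 and 34.2 FPKM in SMA, with the value of control replicate 2 held mostly by Vtn at 359 FPKM, and none of the 8 genes at 0. Their part in the Cygb values was not tested.

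**Figure D4:**
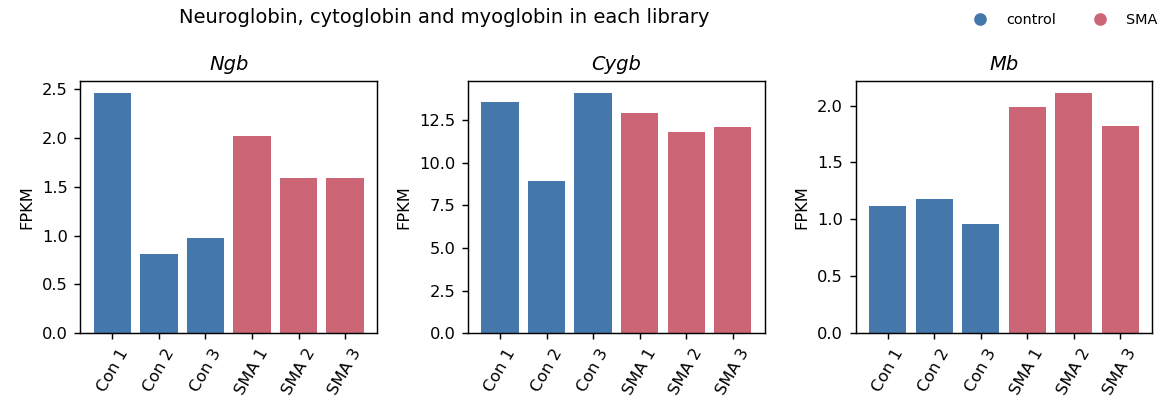
Level of Ngb, Cygb and Mb in each library, in FPKM, as 1 bar per library on axes of their own, with control libraries (Con) in blue and SMA libraries in red. Control replicate 2 is the lowest library for Ngb (0.809 FPKM) and Cygb (8.91 FPKM), and the SMA libraries lie above all controls for Mb (1.82 to 2.11 FPKM).

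Genes that act with the globins were described from lists. Heme synthesis supplies the prosthetic group, and Alas2 is its first enzyme in red cells. Alas2 was at 7.64, 86.2 and 5.19 FPKM in control replicates 1, 2 and 3 and at 5.52, 7.35 and 6.20 FPKM in SMA replicates 1, 2 and 3. It followed the adult globins closely: the summed adult globin FPKM per FPKM of Alas2 was 242, 216 and 226 in the control replicates and 201, 232 and 213 in the SMA replicates. The highest of these ratios was 1.20 times the lowest, although control replicate 2 exceeded the median of the others by 13.9 times for Alas2 itself. Alad and Urod, the other most abundant genes of the list, were at 72.8 and 43.5 FPKM in control replicate 2 and at no more than 28.9 and 19.7 FPKM elsewhere.

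The anion exchanger of the red cell membrane did not keep to the same ratio. Its gene Slc4a1 was at 4.55, 89.3 and 1.77 FPKM in control replicates 1, 2 and 3 and at 0.741, 1.35 and 2.09 FPKM in SMA replicates 1, 2 and 3. It was highest in control replicate 2 and next in control replicate 1, and the groups overlapped through control replicate 3. The summed adult globins per FPKM of Slc4a1 ranged from 208 in control replicate 2 to 1495 in SMA replicate 1. Adult globin FPKM was thus lowest relative to Slc4a1 in control replicate 2.

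The log2 fold change of Slc4a1 was -2.26 (SE 1.21, adjusted p = 0.683 by limma) and -0.75 without control replicate 2 (SE 0.33, adjusted p = 0.492). The most abundant genes of the red cell protein list, Car2, Sptb and Bpgm, are also expressed outside red cells, and in control replicate 2 they were at 6.52, 1.16 and 1.55 times the median of the other libraries. Of the 19 genes, all passed the minimum mean with control replicate 2 and 9 passed it without, so counts over those that passed depend on that library. With all libraries, 8 of 19 did not overlap and were lower in SMA, beside 6.67% of all genes, and without control replicate 2, 4 of 9 were lower and 1 higher, beside 13.9% and 14.2%. The 10 genes that passed only through control replicate 2 are high there by that choice, so nothing is read from the count over 19. Over the same 9 genes, the median log2 fold change was -1.06 with all libraries and -0.24 without control replicate 2, beside 0.04 and 0.00 over all genes tested.

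Among the 14 regulators of globin genes, Klf1, the activator that binds CACCC elements, was at 1.72, 20.8 and 0.50 FPKM in control replicates 1, 2 and 3 and at 0.0582, 0.550 and 0.667 FPKM in SMA replicates 1, 2 and 3. Its log2 fold change was -1.67 (SE 0.93, adjusted p = 0.683 by limma) and -0.53 without control replicate 2 (SE 0.30, adjusted p = 0.576). Gata1 was at 7.95 FPKM in control replicate 2, at 0.206 and 0.385 FPKM in the other controls and at 0.0346 to 0.0719 FPKM in SMA. Klf1 overlapped between the groups, with SMA replicates 2 and 3 above control replicate 3. Gata1 passed the minimum mean only through control replicate 2, so nothing is read from the order of its groups.

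Sox6, known as a repressor of Hbb-y in definitive red cells and also expressed in oligodendrocyte precursors, was at 21.3, 28.4 and 19.9 FPKM in control and at 15.3, 16.5 and 13.9 FPKM in SMA. Every control was above every SMA library, with a log2 fold change of -0.56 (SE 0.15, unadjusted p = 0.00811, adjusted p = 0.683 by limma) and of -0.41 without control replicate 2 (SE 0.09, adjusted p = 0.289). Bcl11a, a repressor of fetal globin genes that neurons also express, was at 25.9, 18.5 and 30.5 FPKM in control and at 26.5, 26.4 and 28.1 FPKM in SMA, and the groups overlapped. Its log2 fold change was 0.14 (limma adjusted p = 0.765) and -0.06 without control replicate 2 (adjusted p = 0.850). Ldb1, which joins distant enhancers to globin promoters, ranged from 27.1 to 30.2 FPKM. It was higher in every SMA library than in any control, as for 10.3% of all genes tested. The log2 fold change of Ldb1 was 0.09 (SE 0.08, adjusted p = 0.698 by limma). Over the list, 6 of 14 genes were lower in SMA and 1 higher without overlap, beside 6.67% and 10.3% of all genes. Of the 14, Gata1 and Nfe2 passed only through control replicate 2, so nothing is read from that count. Gata1 is among the 6, while Nfe2, named after its values were seen, overlapped between the groups. Of the 12 genes tested without control replicate 2, 5 were lower and 1 higher, beside 13.9% and 14.2% of all genes. An unadjusted p under 0.05 was reached by 2 genes with all libraries, beside 5.79% of all genes, and these were Sox6 and Lmo2, the latter named after its values were seen. Without control replicate 2 it was reached by 2 of 12, beside 10.5%. None had an adjusted p under 0.05 by limma.

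Of the 11 heme synthesis genes, 2 were lower in SMA without overlap, beside 6.67% of all genes, and 0 had an unadjusted p under 0.05 by limma, beside 5.79%. Without control replicate 2 these counts were 3, beside 13.9%, and 1, beside 10.5%. The list had a median log2 fold change of -0.53, of -0.09 without control replicate 2 and of -0.83 without control replicate 3. Of the 8 genes for clearance of hemoglobin and heme, 7 were tested, and each of these overlapped between the groups. Hpx and Hp, plasma proteins of the liver that bind heme and hemoglobin, were at 516 and 215 FPKM in control replicate 2 and at no more than 2.00 and 2.12 FPKM elsewhere. Lrp1, the most abundant gene of that list, ranged from 73.5 to 97.7 FPKM. The list's median was -0.66 with all libraries and 0.13 without control replicate 2. It was -1.07 without control replicate 3 and -0.37 with no filter on low FPKM.

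Reductases and cytochromes b5 that can return globin heme to its ferrous state were also compared. Cyb5a was at 25.9, 118 and 29.8 FPKM in control and at 22.6, 24.0 and 24.0 FPKM in SMA, with every control above every SMA library. Its log2 fold change was -0.91 (SE 0.54, adjusted p = 0.683 by limma) and -0.23 without control replicate 2 (SE 0.08, adjusted p = 0.405, unadjusted p = 0.0191). Cyb5r3 ranged from 17.5 to 25.3 FPKM, Cyb5b from 31.4 to 37.8 FPKM and Por from 22.8 to 43.7 FPKM, with overlap in each. Of the 6 genes tested, 1 had an unadjusted p under 0.05, beside 5.79% of all genes, and this was Cyb5r1, named after its values were seen. This count was 2 without control replicate 2, beside 10.5%. Groups did not overlap, lower in SMA, for 2 of the 6 with all libraries and for 3 without control replicate 2, beside 6.67% and 13.9%.

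Lists differed in how far control replicate 2 exceeded the other libraries. Its ratio to the median of the other 5 was 12.0 to 16.0 for the adult globins, with a median of 14.9. The median ratio was 2.76 over the heme synthesis genes, 42.6 over the red cell protein genes and 404 over the hepatocyte markers, beside 0.889 over all genes tested for which it was defined. The neutrophil markers had a median ratio of 72.3 and summed to 464 FPKM in control replicate 2 and to 5.67 to 12.4 FPKM elsewhere, with S100a8 as their most abundant gene. The hepatic macrophage markers summed to 39.4 FPKM in that library and to at most 0.246 FPKM elsewhere, where 1 to 4 of the 5 were at 0, and Marco was the most abundant. In this ratio each adult globin lay below Slc4a1 (50.4) and every hepatocyte marker. The red cell protein genes ranged from 1.16 to 152, so they lay on both sides of the adult globins. Among those below were Car2 (6.52), Bpgm (1.55) and Sptb (1.16).

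**Figure D5:**
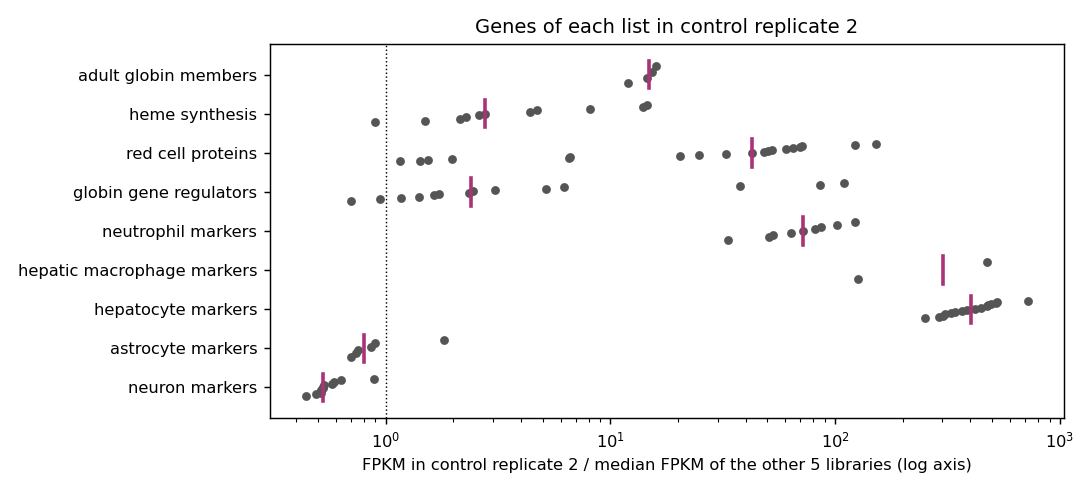
FPKM in control replicate 2 divided by the median FPKM of the other 5 libraries (log axis), with 1 point per gene and a bar at the median of each list. Genes whose median elsewhere was 0 are left out. Adult globins lie at 12.0 to 16.0, hepatocyte markers at 252 to 721 and neuron markers at 0.442 to 0.886.

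The remaining lists were set beside the globins as other contents of the tissue. The hepatic stellate markers summed to 27.1 FPKM in control replicate 2 and to 1.79 to 2.70 FPKM elsewhere. Ecm1 was the most abundant by the mean over libraries, and in control replicate 2 it was Colec10, at 9.51 FPKM. The platelet and megakaryocyte markers summed to 65.4 FPKM in control replicate 2 and to 20.8 to 26.7 FPKM elsewhere. Gp1bb made up most of the sum elsewhere but was at 17.4 FPKM in control replicate 2, below Ppbp (23.9 FPKM) and Pf4 (17.6 FPKM). The endothelial markers summed to 52.3, 60.1 and 54.1 FPKM in control and to 42.3, 32.8 and 33.2 FPKM in SMA, with Cldn5 as the most abundant and none at 0. All control sums were above all SMA sums for this list. The same order held for the red cell proteins, globin gene regulators, globin reductases, pericyte and smooth muscle markers, and platelet and megakaryocyte markers. Single genes had this order in 6.67% of all genes tested. For the red cell proteins the lowest control sum was 116 FPKM and the highest SMA sum 115 FPKM. For the platelet and megakaryocyte markers these were 24.7 and 23.8 FPKM. Each sum rests most on its abundant genes, and the sums were not tested. The part of these cell contents in the globin values was not tested.

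Outside control replicate 2, control replicate 1 was often the highest library for red cell genes. It was the highest of the other 5 for 3 of the 4 adult globins, for 11 of 19 red cell protein genes and for 8 of 11 heme synthesis genes, beside 4546 of 17088 genes tested. Control replicate 1 is thus the library with the embryonic globins and, after control replicate 2, with the highest Slc4a1 and Klf1. This was not confined to red cell genes: it was also highest of those 5 libraries for 4 of 6 astrocyte markers and 5 of 9 neutrophil markers, and for 2 of 16 hepatocyte markers.

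By pattern over the 6 libraries, the genes most like the summed adult globins were Man1a, Mpo and Alas2, with Pearson correlations of log2(FPKM + 1) of 0.9992, 0.9986 and 0.9975 among 15411 genes compared. These correlations rest on control replicate 2. Over the other 5 libraries the nearest were Lysmd2, Gm3752 and Cul2 (0.9998, 0.9981 and 0.9974 among 14817 genes). For Ngb they were Pelp1, Scx and Supt16 over 6 libraries and Sec22c, Ace and Ttll9 over 5. For Cygb they were Rae1, Gm14410 and Fam181b over 6 and Gtf2e2, Map2k5 and Mpdz over 5. No gene was named for both sets of libraries. Correlations above 0.99 were reached by 88 genes with the adult globins, 4 with Ngb and 7 with Cygb over 6 libraries, and by 17, 18 and 14 over 5.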

How the data were processed

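The authors deposited 1 table of FPKM per library, made from strand-specific, rRNA-depleted spinal cord RNA with HISAT2 and Cufflinks on mm10 (tool versions not given in the sources used here). Genes that a table does not list were set to 0. The deposited values hold no read counts, so depth and its precision are unknown. Control and SMA were compared with limma 3.58.1 (R 4.3.3, lmFit, eBayes with a trend) on log2(FPKM + 1). Genes whose mean over the libraries reached 0.5 FPKM were tested two-sided, with Benjamini-Hochberg adjustment over all genes tested. The fit was tested on simulated data with the same spread for every gene and no outlying library. That simulation therefore does not cover a library such as control replicate 2. Fold changes on this scale understate those of low genes. Paralog ratios were compared by an exact two-sided permutation test, and sums, shares and lists were described without a test. Python 3.11.15 was used for the rest.

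The globins and the lists (other globin-family genes, heme synthesis, red cell proteins, globin gene regulators, hemoglobin and heme clearance, globin reductases and the cell type markers) were chosen with earlier results of these data known. Named were all globins, every other globin-family gene found, the 3 genes of highest mean FPKM in each list, a few fixed genes (Alas2, Slc4a1, Klf1, Gata1, Bcl11a, Cyb5r3 and Alb) and, for likeness, the 3 genes with the highest Pearson correlation among those with a mean of at least 1 FPKM. Some further genes of this rule are not reported here, and 7 other globin-family genes were not analysed here. Named genes that the text does not discuss were left out for length. Quantile normalization was applied to the paralog ratios as an alternative chosen after seeing the data. Other alternatives were the pseudocount, the filter, 4 scalings, a replicate block, robust eBayes, leaving out each library, and leaving out control replicate 2 together with another scaling or pseudocount. Coordinates are from GENCODE M21 and promoter sequences from RefSeq (GRCm38.p6).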

Additional observations from a re-analysis of the deposited data

How the results depend on the processing

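Across the alternatives no globin reached an adjusted p under 0.05 by limma, and Hba-a1, Hba-a2, Hbb-bt and Ngb kept the sign of their log2 fold change. The sign of Hbb-bh1 is fixed by its filter, and it had no value without control replicate 1 or with a minimum mean of 1 FPKM. Leaving out each library in turn, Hbb-bs ranged from -1.95 to 0.06 and Cygb from -0.16 to 0.14. With control replicate 2 left out, Hbb-bs was 0.06 under median ratio scaling, -0.05 under quantile normalization and 0.06 with a pseudocount of 0.1, and Cygb was -0.17, -0.15 and -0.17 with median ratio scaling, quantile normalization and a pseudocount of 0.1. With all libraries, Cygb was -0.02 under median ratio scaling and -0.0021 when libraries were rescaled to the same total outside the globins and the hepatocyte and red cell lists. The cause was not tested.

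The count of genes with an unadjusted p under 0.05 and a fold over 2, 29 in the reported fit, was 189 with a pseudocount of 0.1, 174 when control replicate 2 was also left out, and 16 to 144 when each library was left out in turn. Genes with an adjusted p under 0.05 numbered 0 to 2 over those libraries, and with control replicate 2 left out 1 under median ratio scaling, 2 under quantile normalization and 2 with a pseudocount of 0.1. Genes without overlap and lower in SMA, 1140 in the reported fit, numbered 1495 to 2319 with each library left out, and with control replicate 2 left out 2360 under median ratio scaling, 2241 under quantile normalization and 2302 with a pseudocount of 0.1. Those higher in SMA, 1757 in the reported fit, numbered 2313 to 3697 with each library left out and 1075 when rescaled outside the lists. Fewer libraries in a group make separation easier by construction.

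With a replicate block 48 genes had an unadjusted p under 0.05 and a fold over 2, and 0 an adjusted p under 0.05. Deviations of libraries of the same number from their group means were hardly correlated (r of -0.04, 0.02 and 0.08 over 17088 genes). With 3 libraries per group and control replicate 2 outlying, these values cannot tell whether the numbers pair the libraries. The paired log2 differences of the alpha and beta paralog ratios were 0.19 and 0.36 (exact p = 0.25 each, the smallest that 3 pairs allow). With each library left out in turn these differences ranged from 0.16 to 0.22 and from 0.31 to 0.41. Under quantile normalization, chosen for the ratios after seeing the data, they were -0.07 (exact p = 0.90) and 0.54, and without control replicate 2 0.09 and 0.23.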

Other observations

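The library that carried the embryonic globins also held other genes that were nearly missing elsewhere. Of genes at 1 FPKM or more in 1 library and under 0.3 FPKM in each of the others, 15 were found in control replicate 1, 417 in control replicate 2, 8 in control replicate 3 and 5, 3 and 6 in SMA replicates 1, 2 and 3. The 15 of control replicate 1 include all 3 embryonic globins. Also among them was Hoxb13, a homeobox gene of the most caudal part of the body axis, at 1.75 FPKM in control replicate 1 and at most 0.0914 FPKM in each other library. Olfr65, an olfactory receptor gene, was at 1.16 FPKM there and at most 0.0940 FPKM elsewhere. These genes were chosen after their values were seen, and no test was made of them.

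The genes with an adjusted p under 0.05 once control replicate 2 was left out encode small structured RNAs. Rpph1, the RNA part of ribonuclease P, was at 72.3, 74.8 and 73.1 FPKM in control replicates 1, 2 and 3 and at 109, 114 and 115 FPKM in SMA replicates 1, 2 and 3. Its values did not overlap with control replicate 2 included either. Without control replicate 2 its log2 fold change was 0.63 (limma adjusted p = 0.0424), and with median ratio scaling as well it was 0.62 and no longer called (limma adjusted p = 0.0574). Snora74a, a small nucleolar RNA, was at 0, 2.99 and 0 FPKM in control and at 10.5, 7.85 and 5.56 FPKM in SMA, with a log2 fold change of 3.13 without control replicate 2 (limma adjusted p = 0.0215). It was not listed in control replicates 1 and 3, where it was set to 0, so that fold change is uncertain. With median ratio scaling as well its limma adjusted p was 0.0192. With a pseudocount of 0.1 and control replicate 2 left out, its log2 fold change was 6.29 (limma adjusted p = 0.00183).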
